A study of Danio rerio with 21 samples.

Results

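The genes of the cytosolic ribosomal proteins were followed through livers of zebrafish larvae at 7 days post fertilization (dpf) by RNA-seq. Members were all gene identifiers of the count files whose zebrafish symbol begins with rpl or rps and a digit, or is rpsa, rplp0, rplp1, rplp2 or rplp2l, leaving out the S6 kinases. The rule found 84 members among 32520 identifiers, with 80 different symbols. Going by symbol, 47 members were counted with the large subunit and 36 with the small subunit, relatives such as rpl7l1 included. The remaining one, rps19bp1, codes for a protein that binds Rps19 in humans and is not a part of the ribosome. There were 4 symbols, rpl5 and rps26 among them, that each stood beside 2 identifiers, which are told apart here by their Ensembl number, and the name table gave human-style symbols to rps4y2 and rpl36al. All 84 members passed the filter on low counts, and 82 had at least 100 counts in some genotype.

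There were 7 genotypes, with 3 libraries each. Wild-type larvae (WT) were compared with sec31anju221 larvae, which are homozygous for a gene-trap insertion in sec31a, a coat gene of the COPII vesicles that carry proteins from the endoplasmic reticulum to the Golgi. This allele leaves a shortened fusion protein with part of its function. The other 5 lines carried sec31anju221 together with mutations made by CRISPR/Cas9, and were atf4a-/-;atf4b-/-;sec31anju221, xbp1-/-;sec31anju221, atf6-/-;sec31anju221, srebf1-/-;sec31anju221 and srebf2-/-;sec31anju221. Below they are called the atf4a/atf4b, xbp1, atf6, srebf1 and srebf2 lines. Atf4, Xbp1 and Atf6 are transcription factors of the unfolded protein response, and Srebf1 and Srebf2 are transcription factors of lipid and sterol synthesis. The design sets sec31anju221 against WT and each of the 5 lines against sec31anju221. The 5 lines are therefore compared with the same sec31anju221 libraries.

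A ribosome is built from a large and a small subunit, each an RNA core clothed by many proteins, and the proteins are needed in matching numbers. The large subunit joins amino acids together and holds the exit tunnel of the new protein, while the small subunit reads the mRNA. Ribosomal protein mRNAs of vertebrates begin with a tract of pyrimidines through which their translation is regulated together, and they are among the commonest mRNAs of most cells. In liver, which secretes most plasma proteins, many of these ribosomes work at the endoplasmic reticulum. No protein or promoter sequences were used here.

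The libraries held between 9608400 and 23095746 counts. Within a genotype the 3 libraries varied nearly as repeat sampling of read pairs would. The median ratio of variance to mean, scaled to be 1 for single reads, was 1.79 to 1.88 over the better counted genes. Read pairs counted as 2 would give 1.54 to 1.72, as estimated from genes with few counts. Over members with a mean of at least 100 counts the ratio was 1.3 to 3.01. They were therefore counted as 1 sample per genotype. The values of single libraries below show sequencing precision only, no difference between genotypes has a replicate check, and no p-value is given. A difference over 2-fold is a description of these livers. The deleted or trapped genes were lower in their own lines: sec31a had 2.01 CPM (counts scaled to the library total) in sec31anju221 against 9.44 CPM in WT, and xbp1 had 0.802 CPM in the xbp1 line against 79 CPM in sec31anju221. Likewise atf6 had 9.16 CPM in the atf6 line against 249.5 CPM in sec31anju221, srebf1 had 0.323 CPM in the srebf1 line against 1.2 CPM in sec31anju221, and srebf2 had 0.562 CPM in the srebf2 line against 3.39 CPM in sec31anju221. But srebf1 had 0.229 CPM in the srebf2 line, so its level does not tell the srebf1 and srebf2 lines apart. In CPM, sec31a had 1.44 in the srebf1 line, 2.78 in srebf2, 4.84 in labelled atf4a/atf4b, 6.56 in atf6 and 7.22 in xbp1. After TMM scaling, explained below, sec31a had 2.0 to 4.9 CPM in these lines, against 19.5 CPM in WT. In the libraries labelled atf4a-/-;atf4b-/-;sec31anju221 both targets were higher, with 19.8 CPM of atf4a against 4.88 CPM in sec31anju221 and 207 CPM of atf4b against 67.3 CPM in sec31anju221, so the RNA levels go against that label. Every direction given below for these libraries is that of the libraries so labelled. Of 18 hepatocyte markers 16 were matched, and they took 3.02% to 6.85% of all counts over the genotypes, and none was at 0.

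The livers of the srebf2 and srebf1 lines gave the ribosomal protein genes a far larger part of their counts than the other genotypes. The 84 members took 8.69, 8.67 and 8.72% of all counts in the 3 srebf2 libraries and 5.9, 5.88 and 5.89% in the srebf1 libraries. They took 2.83, 2.83 and 2.82% in the sec31anju221 libraries. The share was thus 3.07 times that of sec31anju221 in the srebf2 line (95% interval of counting error 3.07 to 3.08) and 2.08 times in the srebf1 line (2.08 to 2.09). Such intervals treat counts as independent, and are too narrow where read pairs were counted as 2. These ratios take the library total as the scale. On the TMM scale, explained below, the summed level of the members was 154800 CPM in the srebf2 line and 83400 CPM in the srebf1 line, against 37140 CPM in sec31anju221.

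As shares of the library total, the other genotypes lay close to sec31anju221. The members took 3.26, 3.24 and 3.23% of counts in the xbp1 libraries and 3.23, 3.21 and 3.21% in the atf6 libraries, which is 1.15 and 1.14 times the sec31anju221 share. In the libraries labelled as the atf4a/atf4b line they took 2.63, 2.62 and 2.61%, or 0.927 times the sec31anju221 share. The WT libraries gave 2.77, 2.75 and 2.77%, so that sec31anju221 stood at 1.02 times WT. A single apolipoprotein gene, apoa2, took 28% to 28.3% of the WT counts against 11.3% to 11.7% in sec31anju221. With apoa2 left out of the totals, the sec31anju221 share was 0.83 times that of WT. The TMM-scaled sums lay far apart, with 16690 CPM in the labelled atf4a/atf4b line, 15550 CPM in the xbp1 line and 15420 CPM in the atf6 line, against 37140 CPM in sec31anju221. The sum of 37140 CPM in sec31anju221 stood against 56970 CPM in WT.

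**Figure D1:**
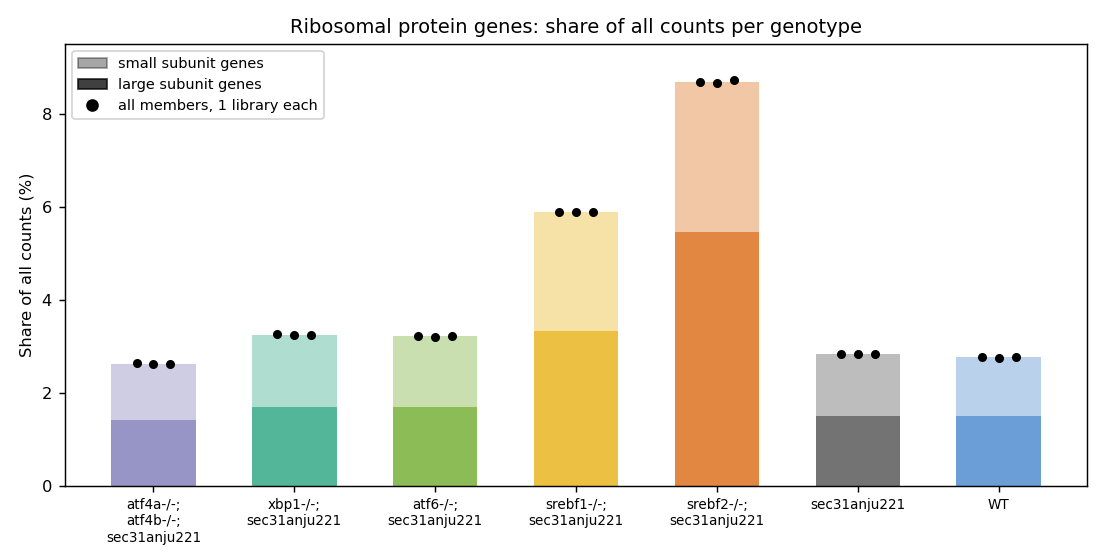
Share of all counts (%) taken by the ribosomal protein genes in each genotype: bars are the 3 libraries pooled, split into large-subunit genes (dark) and small-subunit genes (pale), and points are the single libraries. The srebf2 bar reaches 8.69% and the srebf1 bar 5.89%, and the other 5 bars lie between 2.62% and 3.24%.

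Member by member, most genes were higher in the srebf1 and srebf2 lines than in sec31anju221. After TMM scaling, which sets libraries level by the bulk of their genes, 76 of 84 members were over 2-fold higher in the srebf2 line than in sec31anju221 and 0 were over 2-fold lower, where 15.3% of all 30792 genes tested were over 2-fold higher and 34.0% lower. The log2 difference was above 0 for 80 of the 84 and its lowest value was −0.83. The median member had a log2 difference of 2.03, against −0.43 for all genes. In the srebf1 line 57 members were over 2-fold higher and 0 lower, where 16.0% of all genes were higher and 21% lower. Here too it was above 0 for 80 of the 84, with a lowest value of −0.80. The median member had a log2 difference of 1.17, against −0.12 for all genes. With library totals alone as the scale, the counts were 63 higher and 1 lower in the srebf2 line, where 9.8% of genes were higher and 46.2% lower, and 48 higher and 0 lower in the srebf1 line, where 14.2% were higher and 23.3% lower.

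In the xbp1, atf6 and labelled atf4a/atf4b lines the sign depended on the scale. After TMM scaling 60 members were over 2-fold lower and 0 higher in the xbp1 line, where 19.0% of all genes were lower and 15.8% higher. In the atf6 line 54 were lower and 0 higher, where 22.1% of all genes were lower and 19.9% higher. In the libraries labelled as the atf4a/atf4b line 31 were lower and 0 higher, where 21% of all genes were lower and 19.0% higher. With library totals alone, only 1, 2 and 3 members were over 2-fold lower in the xbp1, atf6 and labelled atf4a/atf4b lines and 2, 6 and 4 were higher, where 3.26%, 6.32% and 9.58% of all genes were lower and 69.4%, 67.9% and 58.5% higher. These 3 lines had 21674 to 23458 genes at 1 CPM or more, against 11627 to 15433 in the other 4 genotypes, and their TMM factors were 1.56 to 2.09 against 0.484 to 0.762. They also had the smallest libraries, with 9608400 to 11666806 counts against 18918025 to 23095746 in the other 4 genotypes. Depth and genotype therefore change together in these 3 comparisons. What part the wider set of detected genes had in the lower TMM-scaled levels was not tested.

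In sec31anju221 against WT the TMM scale gave 1 member over 2-fold higher and 14 lower, where 21.3% of all genes were higher and 14.0% lower. Library totals gave 5 higher and 1 lower, where 41.8% were higher and 6.92% lower.

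TMM factors taken only from genes with at least 10 CPM were a further scale. On it 2 members were higher and 12 lower in sec31anju221 against WT, where 23.6% of genes were higher and 12.6% lower. Against sec31anju221, 6 were higher and 3 lower in the labelled atf4a/atf4b line (64.6% and 7.97% of genes), 2 higher and 2 lower in the xbp1 line (64.7% and 4.27%), and 8 higher and 2 lower in the atf6 line (69.3% and 5.96%). The srebf1 line had 48 higher and 0 lower (14.2% and 23.2%), and the srebf2 line 74 higher and 1 lower (12.5% and 39.5%).

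A change of scale moves all genes by the same amount, so the place of the members relative to all genes is nearly the same on each scale by construction. The median member lay below the median of all genes tested in sec31anju221 against WT and in the labelled atf4a/atf4b, xbp1 and atf6 lines against sec31anju221, and above it in the srebf1 and srebf2 lines. On the TMM scale the member medians for the first 4 of these comparisons were −0.49, −0.80, −1.14 and −1.11, beside all-gene medians of 0.18, 0.22, 0.20 and 0.24. On library totals they were 0.15, 0.24, 0.31 and 0.34, beside all-gene medians of 0.82, 1.25, 1.65 and 1.69. This lower place was not particular to the members. In the same order the TMM-scaled medians of the 16 hepatocyte markers were −1.27, −0.76, −1.41 and −1.01. Those of 69 ribosome assembly factor genes, described below, were −0.19, −1.32, −1.24 and −1.54. A list of 7 intestine markers lay above the all-gene medians, at 0.275, 0.65, 0.21 and 0.71.

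**Figure D2:**
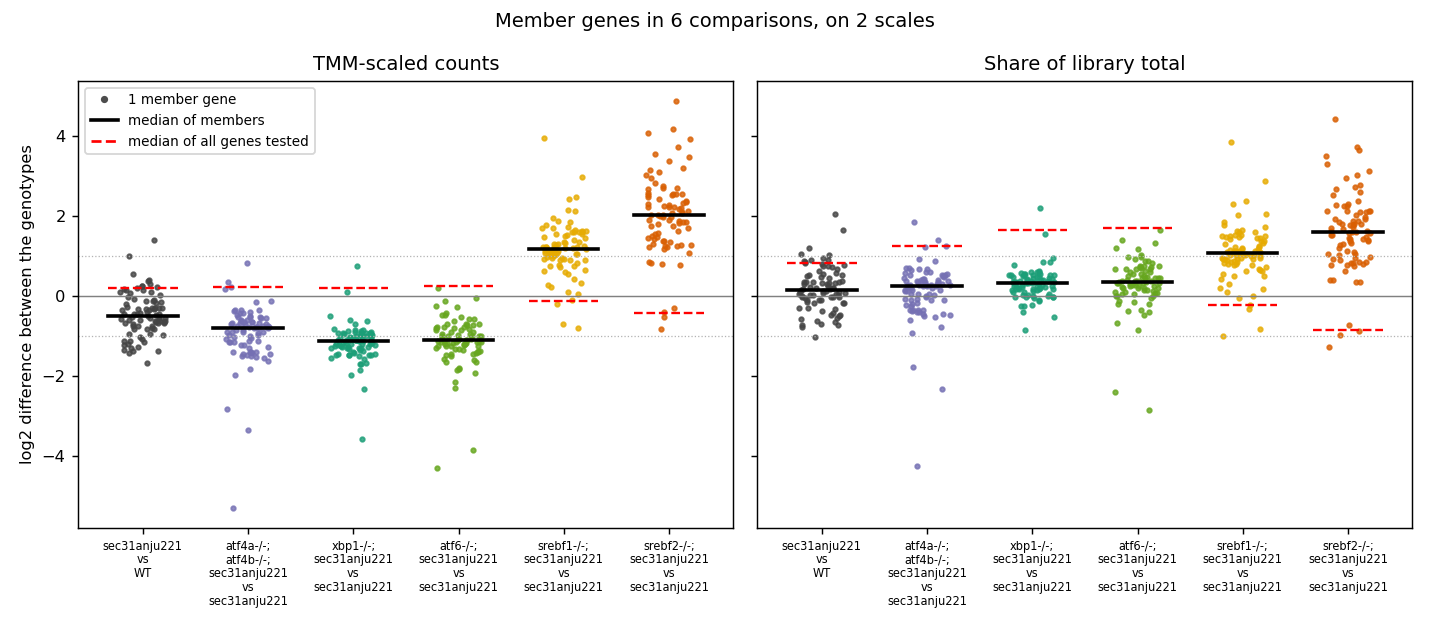
Log2 difference between genotypes for each member gene (points), with the median of the members (black) and of all genes tested (red dashes), from TMM-scaled counts (left) and from the share of the library total (right, without members at 0 counts). Dotted lines mark 2-fold. The member median was 2.03 and 1.59 on the 2 scales in the srebf2 line and −1.14 and 0.31 in the xbp1 line.

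Within the family the counts were unevenly spread. The most counted member was rps20, a protein of the head of the small subunit. It took 17.8% of all member counts in WT and 10.2% to 14.3% in every other genotype but srebf2, where it took 8.39%. Its level was 7232, 7398 and 7237 CPM in the srebf2 libraries and 6632, 6866 and 6691 CPM in the srebf1 libraries, against 3541, 3571 and 3540 CPM in sec31anju221. In sec31anju221 it was lower than in WT, which had 4962, 4885 and 4948 CPM. In every genotype but srebf2 the second place was held by rpl19 or rpl35, both of which lie around the mouth of the exit tunnel. The 10 most counted members together took 37.9% to 49.2% of member counts. The median member took 0.616% of member counts in WT and up to 0.838% in the labelled atf4a/atf4b line. Counts were not divided by transcript length, so these shares do not rank the genes by number of transcripts.

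The identifier listed as rpl26 had hardly any counts, with 20 counts in all 21 libraries together and 0 in the 3 xbp1 libraries. Mean levels on the TMM scale were 7.74 CPM for rps11l and 7.34 CPM for rps27.2, and 16.4 CPM for rpl9. How reads that map to several places were counted is not given in the sources used here, so low values of genes with close copies elsewhere are uncertain.

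Of 4 groups by place in the ribosome, the one with the highest ratio in the srebf1 and srebf2 lines was the small complex that Rpl5 and Rpl11 form with the 5S ribosomal RNA before it joins the large subunit. The 2 identifiers listed as rpl5 and rpl11 together had 13680 CPM in the srebf2 line and 5120 CPM in the srebf1 line, against 1356 CPM in sec31anju221, which is 10.1 and 3.77 times the sec31anju221 level. They took 15.7% and 8.69% of member counts in these lines, against 4.8% in sec31anju221 and 7.05% in WT. In the labelled atf4a/atf4b and xbp1 lines the ratio to sec31anju221 was 1.11 and 1.02, below that of the stalk group described further on, at 1.32 and 1.41. The groups were chosen after the values were seen.

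The excess lay in rpl5 rather than in rpl11. The identifier ENSDARG00000015862 had 7643, 7607 and 7670 CPM in the srebf2 libraries and 1272, 1268 and 1291 CPM in the srebf1 libraries, against 352, 353 and 360 CPM in sec31anju221. This was 21.5 times the sec31anju221 share of all counts in the srebf2 line and made it the most counted member there, with 8.79% of member counts. The other rpl5, ENSDARG00000020197, had 3901, 3896 and 3928 CPM in the srebf2 libraries and 2289, 2250 and 2267 CPM in the srebf1 libraries, against 317, 312 and 308 CPM in sec31anju221. In both lines its libraries were all far above those of every other genotype, which held between 301 and 467 CPM. By contrast, rpl11 had 2114, 2117 and 2159 CPM in the srebf2 libraries and 1566, 1577 and 1580 CPM in the srebf1 libraries, against 683, 689 and 695 CPM in sec31anju221. Its share of member counts in the srebf2 line was 1.01 times that in sec31anju221.

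Without both rpl5 identifiers the members took 2.73 times the sec31anju221 share of all counts in the srebf2 line and 2.01 times in the srebf1 line. The larger share of the family thus remained without them.

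Further large-subunit genes took over 2-fold larger parts of the family in the srebf2 line. Of these rpl24, whose protein bridges the large and the small subunit, was highest in the srebf1 line. It had 1366, 1370 and 1381 CPM in the srebf1 libraries and 1261, 1284 and 1272 CPM in the srebf2 libraries, against 96.9, 93.2 and 97.5 CPM in sec31anju221, and 14.3 and 13.3 times the sec31anju221 share of all counts. In the other lines it stood between 128 and 187 CPM, and in WT between 82.7 and 85.6 CPM.

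The gene rpl14 had a high level in the srebf2 line and not in the srebf1 line. It had 1886, 1870 and 1856 CPM in the srebf2 libraries but 289, 275 and 290 CPM in the srebf1 libraries, against 164, 169.5 and 163.5 CPM in sec31anju221. Its part of the family was 3.67 times that of sec31anju221 in the srebf2 line and 0.825 times in the srebf1 line. Its WT libraries, with 90.2, 89.2 and 86.2 CPM, were the lowest.

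The gene rpl10a codes for the protein of the stalk that releases spent tRNA. It had 2695, 2667 and 2732 CPM in the srebf2 libraries and 1539, 1526 and 1534 CPM in the srebf1 libraries, against 309, 307 and 313 CPM in sec31anju221. Its part of the family was 2.83 and 2.38 times that in sec31anju221. The gene rpl6 had 3105, 3041 and 3122 CPM in the srebf2 libraries and 1226, 1259 and 1318 CPM in the srebf1 libraries, against 409.5, 394 and 405 CPM in sec31anju221.

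**Figure D3:**
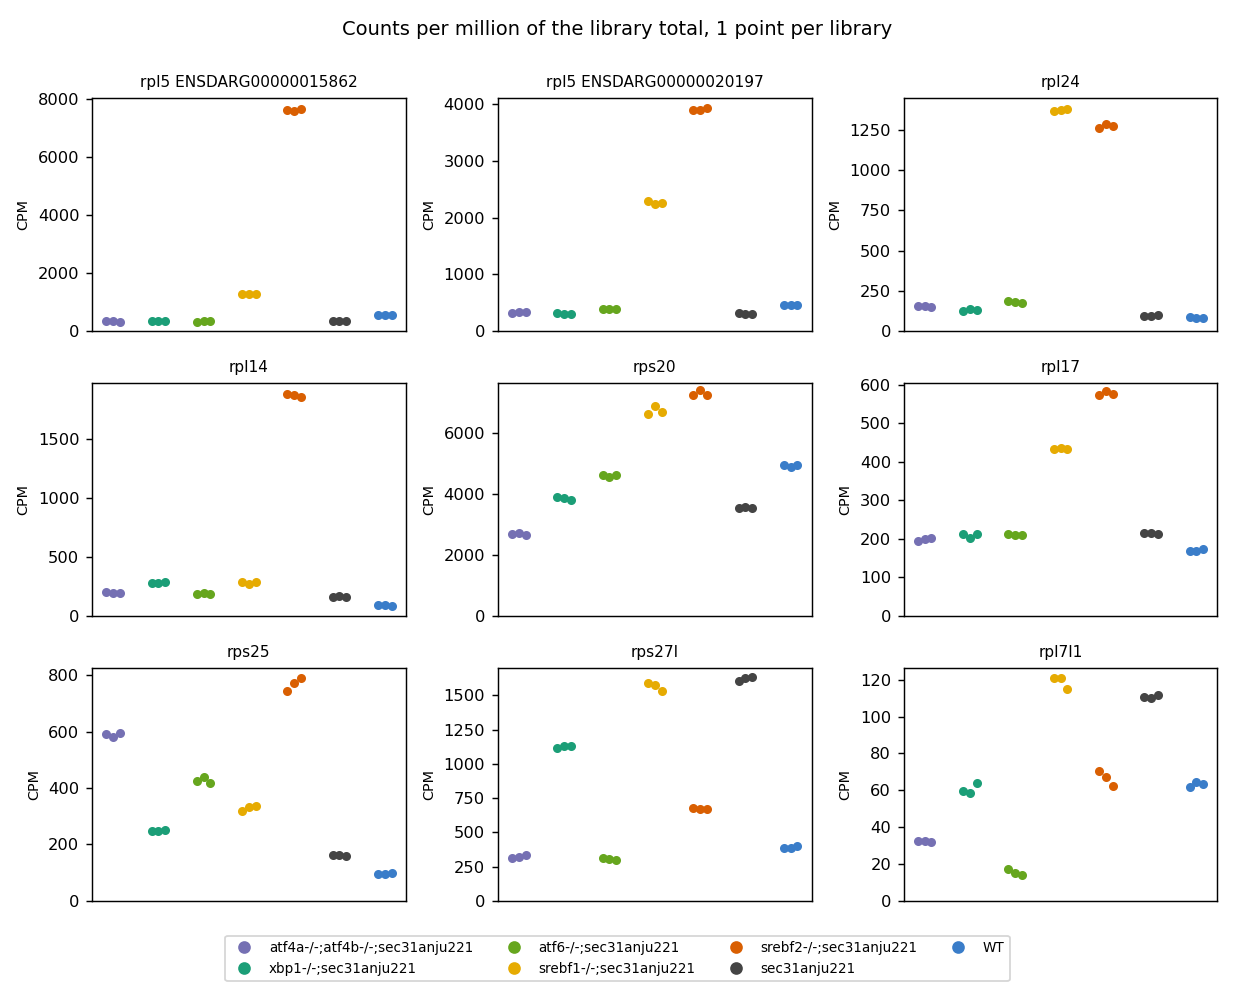
Levels of 9 members in CPM (linear axes from 0), 1 point per library, grouped and coloured by genotype. Both rpl5 identifiers, rpl24 and rps20 are higher in the srebf1 and srebf2 libraries than in all others, rpl14 in the srebf2 libraries alone (1856 to 1886 CPM), and rps27l in the xbp1, srebf1 and sec31anju221 libraries (1113 to 1635 CPM).

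The genes of the other stalk of the large subunit, which calls in the translation factors, did not differ alike. The protein of rpl12 sits at its base. It had 2129, 2134 and 2105 CPM in the srebf2 libraries and 1145, 1093 and 1121 CPM in the srebf1 libraries, against 218.5, 218 and 212 CPM in sec31anju221, and 3.19 and 2.48 times the sec31anju221 part of the family. The scaffold rplp0 had 518, 520.3 and 508 CPM in the srebf2 libraries against 209, 209 and 207.5 CPM in sec31anju221, and its part of the family there was 0.804 times that in sec31anju221. The acidic tip proteins behaved like the scaffold, with 0.676 times for rplp1 and 0.934 times for rplp2, but rplp2l took 2.21 times its sec31anju221 part. Together the 5 stalk genes had 4.73 times the sec31anju221 share of all counts in the srebf2 line and 2.98 times in the srebf1 line.

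The genes around the mouth of the exit tunnel were higher by less. The 7 genes of this group, with rpl26, had 8049 CPM in the srebf2 line and 6325 CPM in the srebf1 line, against 4575 CPM in sec31anju221, or 1.76 and 1.38 times. The gene rpl35 had 2844, 2836 and 2850 CPM in the srebf2 libraries against 2161, 2165 and 2161 CPM in sec31anju221, and its part of the family there was 0.428 times that in sec31anju221. For rpl19 the part was 0.558 times and for rpl17 it was 0.878 times.

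Among small-subunit genes the parts of the family in the srebf2 line ran from 0.135 times the sec31anju221 part for rps27l to 2.65 times for rps11l. The 15 genes of the small-subunit head together had 17800 CPM there, against 6684 CPM in sec31anju221, which is 2.66 times. Within this group rps3, whose protein lines the entry channel of the mRNA, had 475, 466 and 472 CPM in the srebf2 libraries against 75.5, 73.2 and 74.6 CPM in sec31anju221. The gene rps18 had 2946, 2891 and 2931 CPM in the srebf2 libraries against 598, 593 and 580 CPM in sec31anju221, and its share of all counts was 4.95 times that of sec31anju221. The gene rps19, the gene most often mutated in human Diamond-Blackfan anaemia, had 375, 396 and 386.5 CPM in the srebf2 libraries against 296, 297 and 313 CPM in sec31anju221, and 0.416 times its sec31anju221 part of the family.

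Counting all members with at least 100 counts, 11 of 82 took over 2-fold larger and 6 over 2-fold smaller parts of the family in the srebf2 line than in sec31anju221. Among the larger parts were those of both rpl5 identifiers, rpl24, rpl14, rpl12, rpl10a, rpl6, rplp2l, rps3 and the little counted rps11l, and the smaller ones were those of rps27l, rpl7l1, rpl34, rps19, rpl38 and rpl35. In the srebf1 line 4 were larger (rpl24, rpl5 ENSDARG00000020197, rpl12 and rpl10a) and 4 smaller (rps19bp1, rps11l, rps27l and rps27.2). The parts do not depend on any scale between libraries, but a larger part of one member makes those of the others smaller.

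The xbp1 line kept the parts of sec31anju221 most closely. Only 2 of 82 members differed over 2-fold, rps11l with 2.56 times and rpl7l1 with 0.478 times. In the atf6 line and in the libraries labelled as the atf4a/atf4b line 6 members each did so.

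The gene rps25, of the small-subunit head, led the larger parts in both of these lines. It had 592.5, 580 and 595 CPM in the labelled atf4a/atf4b libraries and 426, 439 and 419 CPM in the atf6 libraries, against 163, 164 and 160.2 CPM in sec31anju221, with 3.92 and 2.32 times the part of the family. It was high in the srebf2 libraries too, at 743, 771 and 791 CPM, but there its part was 1.54 times. The WT libraries had 95.6, 95.3 and 98.8 CPM. The gene rplp2l also took larger parts in these lines, 2.58 times in the labelled atf4a/atf4b line and 2 times in the atf6 line, and rps2 took 2.2 times in the atf6 line, with 1138, 1174 and 1150 CPM in the atf6 libraries against 465.5, 457 and 459 CPM in sec31anju221. The remaining shifts over 2-fold were a larger part of rps26 ENSDARG00000037071 and smaller parts of rps19bp1, rps27l and rpl7l1 in the labelled atf4a/atf4b line, and smaller parts of rpl7l1, rps27l and rps29 in the atf6 line.

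The next 2 genes code for relatives of ribosomal proteins and differed from the family sum. Human RPS27L is a close relative of RPS27. Here rps27l had 1608, 1626 and 1635 CPM in sec31anju221, against 388, 383 and 404 CPM in WT, which is 4.15 times the WT share of all counts. It was the only member over 2-fold higher in sec31anju221 than in WT after TMM scaling. Its level was 316, 321 and 336 CPM in the labelled atf4a/atf4b libraries, 314, 307 and 297 CPM in the atf6 libraries and 677, 672 and 667 CPM in the srebf2 libraries. In the xbp1 libraries it had 1113, 1133 and 1134 CPM and in the srebf1 libraries 1588, 1578 and 1530 CPM. Its share of all counts in the labelled atf4a/atf4b and atf6 lines was 0.2 and 0.189 times that in sec31anju221.

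The other gene was rpl7l1, a relative of rpl7 that in humans works in the assembly of the large subunit. It had 111, 110.1 and 112 CPM in sec31anju221, against 61.6, 64.7 and 63.6 CPM in WT. Its levels were 17.1, 15.1 and 13.8 CPM in the atf6 libraries and 32.5, 32.2 and 31.9 CPM in the labelled atf4a/atf4b libraries, or 0.138 and 0.291 times the sec31anju221 share of all counts. The srebf1 libraries held 121, 121 and 115 CPM and so lay above sec31anju221, and the xbp1 libraries held 59.8, 58.3 and 64.1 CPM.

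In sec31anju221 against WT 5 of 82 members differed over 2-fold in their part of the family. Besides rps27l the larger parts were those of rpl38, rps24 and rps27.2. The gene rpl38, which in mice is needed for the translation of Hox mRNAs, had 63.8, 67.2 and 69.5 CPM in sec31anju221 against 21.4, 22.1 and 21 CPM in WT. The gene rps24 had 332, 322.5 and 322.5 CPM in sec31anju221 against 161, 156.5 and 158 CPM in WT. The 1 smaller part was that of rpl7, which had 503, 490 and 495 CPM in sec31anju221 against 1015, 1007 and 1015 CPM in WT, or 0.479 times the part. The libraries of the 2 genotypes did not overlap for these 3 genes, nor for most other members, and this shows sequencing precision only.

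The member that is no ribosomal protein, rps19bp1, had the lowest ratio of any member in the labelled atf4a/atf4b line. It had 3.44, 2.58 and 4.11 CPM in the labelled atf4a/atf4b libraries, against 64, 65.5 and 65.3 CPM in sec31anju221, which is 0.0521 times the share of all counts and a TMM-scaled log2 difference of −5.30. The srebf1 libraries held 37.5, 36.5 and 36.4 CPM and the WT libraries 39, 39.6 and 39 CPM.

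**Figure D4:**
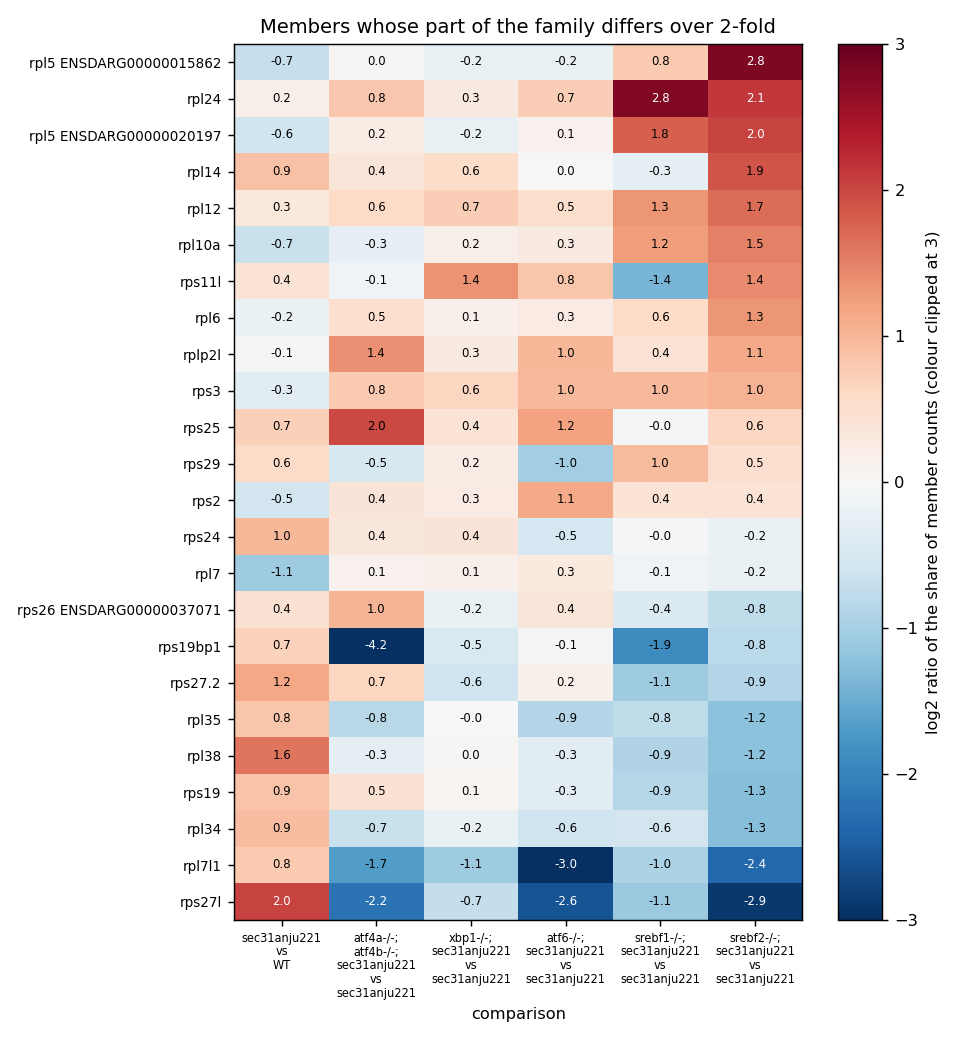
Log2 ratio of the part of all member counts taken by members that differed over 2-fold in at least 1 comparison (rows) in the 6 comparisons (columns), first-named genotype over second, with the value in each cell. Both rpl5 rows and the rpl14 row are highest in the srebf2 column and rpl24 in the srebf1 column, and rps27l is at 2.0 in sec31anju221 against WT and at −2.2, −2.6 and −2.9 in the labelled atf4a/atf4b, atf6 and srebf2 columns.

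The balance between the subunits was shifted toward the large one in the srebf2 and srebf1 lines. The ratio of large-subunit to small-subunit counts was 1.69 in the srebf2 line (1.68 to 1.7 over its libraries) and 1.31 in the srebf1 line (1.3 to 1.31), against 1.12 in sec31anju221 (1.12 to 1.12). It was 1.1 in the xbp1 line, 1.11 in the atf6 line, 1.15 in the labelled atf4a/atf4b line and 1.17 in WT. Without the rpl5 identifiers the ratio was 1.33 in the srebf2 line and 1.17 in the srebf1 line, against 1.07 in sec31anju221. Without rpl35 and rps20, the most counted member of each subunit over all libraries together, it was 2.07 and 1.63. These stood against 1.31 in sec31anju221 and 1.76 in WT. A count ratio says nothing of the number of proteins in a subunit.

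Pairs of related members did not keep fixed proportions. Of the counts of both rpl5 identifiers, ENSDARG00000020197 took 33.8% in the srebf2 line (95% Wilson interval of counting error 33.7% to 34.0%) and 64% in the srebf1 line (63.8% to 64.2%), against 46.8% in sec31anju221 (46.3% to 47.3%). The lines that both had high rpl5 therefore differed in which copy held most of it. Of the rps26 pair ENSDARG00000030408 took 57.4% in the srebf2 line and 49.1% in the srebf1 line, against 42.4% in sec31anju221. In the libraries labelled as the atf4a/atf4b line this part was 38%. Reads shared by near-identical copies could be split in ways not given in the sources used here, so the split within such a pair is uncertain.

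Of the counts of rps27.1 and rps27l, rps27l took 65.1% in sec31anju221, against 30.6% in WT. It took 60.3% in the xbp1 line, 50% in the srebf1 line, 34.5% in the labelled atf4a/atf4b line, 31% in the srebf2 line and 28.9% in the atf6 line. The ordinary rps27.1 did not share this pattern, with 869, 873 and 864 CPM in sec31anju221 against 889, 880.4 and 897 CPM in WT. The pair rpl22 and rpl22l1, which have distinct roles in zebrafish blood development, stood near equal in WT and sec31anju221, with 53% and 53.4% for rpl22. Its part was 40.5% in the srebf2 line and 40.9% in the srebf1 line.

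**Figure D5:**
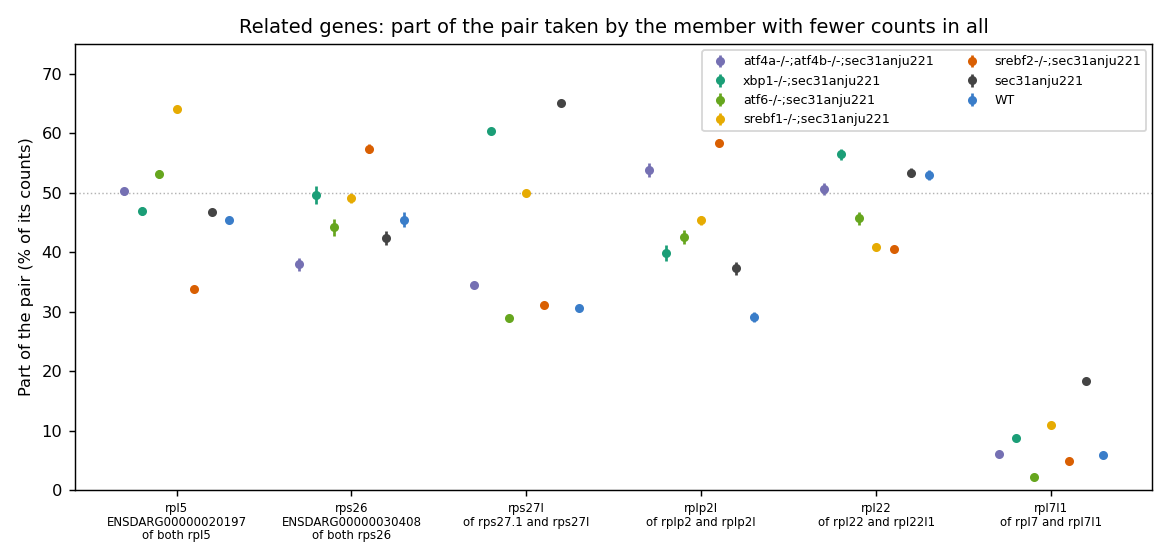
Part (%) of the summed counts of 6 pairs of related members that the member with fewer counts in all libraries took, by genotype, with 95% Wilson intervals of counting error. For rps27l the parts run from 28.9% in the atf6 line to 65.1% in sec31anju221, and for rpl5 ENSDARG00000020197 from 33.8% in the srebf2 line to 64% in the srebf1 line.

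Most members followed the family sum closely over the 7 genotypes. Likeness was measured as the root mean square difference between the centred log2 level of a gene and that of the family sum, which needs no scale between libraries. The sum contains each member itself, so the measure favours members over other genes, most of all members with many counts. Over 82 members the difference had a median of 0.33, and it was lowest for rpl17 (0.11), rpl15 (0.12), rpl18 (0.14), rpl30 (0.15) and rpl8 (0.16). It was highest for rps19bp1 (1.35), rpl24 (1.02), rpl5 ENSDARG00000015862 (0.996), rps27l (0.98) and rpl7l1 (0.95). The gene rpl17 had 573, 583.5 and 574.5 CPM in the srebf2 libraries and 433, 435 and 432.5 CPM in the srebf1 libraries, against 215, 215 and 211 CPM in sec31anju221.

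Of 7349 other genes with at least 10 CPM in a genotype, whose median was 0.95, the most alike to the family were hsp90ab1 (0.18), a cytosolic chaperone, eif3l (0.19), a subunit of an initiation factor, and ppan (0.20), a ribosome assembly factor. They were followed by eif2s3b, rbm5, nipa2, pum3, rack1, ncl and eif3ea, up to 0.21. Among these rack1 is itself a protein of the small subunit that the symbol rule does not take in, and ncl is the nucleolar protein nucleolin. The points are 7 genotypes, and a description of likeness says nothing of a shared control.

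Related gene lists were counted on the TMM scale in the same way. Some ribosomal proteins are made as fusions with ubiquitin or a relative of it. The gene fau joins a ubiquitin-like protein to a part of the small subunit. Of 4 listed fusion genes outside the members 3 were matched, and 2 of them were over 2-fold higher and 0 lower in the srebf2 line than in sec31anju221. Of all genes 15.3% were higher there and 34.0% lower. The gene fau had 637, 623 and 628 CPM in the srebf2 libraries against 97, 94.2 and 94.3 CPM in sec31anju221. Its relative faub was not higher, with 42.7, 37.5 and 45.5 CPM in the srebf2 libraries against 47.25, 52.2 and 50.5 CPM in sec31anju221. The member rps27a, a ubiquitin fusion, had 1397, 1396 and 1369 CPM in the srebf2 libraries against 399, 400 and 416 CPM in sec31anju221.

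Of 17 listed genes for subunits of the initiation factor eIF3 only 9 were matched, so the factor is covered in part. Of these 9, 9 were over 2-fold higher in the srebf2 line and 7 in the srebf1 line than in sec31anju221, and 0 were lower in either, where 15.3% and 16.0% of all genes were higher. Library totals alone gave 8 and 6, where 9.8% and 14.2% of all genes were higher. Of 29 listed elongation factors and other genes with the pyrimidine tract 22 were matched. After TMM scaling 12 of the 22 were higher and 3 lower in the srebf2 line, and 6 higher and 2 lower in the srebf1 line. Of all genes 15.3% and 16.0% were higher on that scale and 34.0% and 21% lower. Library totals alone gave 9 higher and 5 lower in the srebf2 line, and 6 higher and 2 lower in the srebf1 line. There 9.8% and 14.2% of all genes were higher and 46.2% and 23.3% lower. The elongation factor eef1a1l1 had 2674, 2639 and 2674 CPM in the srebf2 libraries and 2438, 2412 and 2425 CPM in the srebf1 libraries, against 906, 918 and 915 CPM in sec31anju221. In the xbp1 line 17 of the 22 and in the atf6 line 14 were over 2-fold lower after TMM scaling, where 19.0% and 22.1% of all genes were lower. Library totals alone gave 0 lower and 3 higher in the xbp1 line and 5 lower and 2 higher in the atf6 line, where 3.26% and 6.32% of all genes were lower and 69.4% and 67.9% higher.

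Of 69 genes of factors that assemble ribosomes 22 were over 2-fold higher and 9 lower in the srebf2 line, where 15.3% of all genes were higher and 34.0% lower. Their median log2 difference was 0.58, against −0.43 for all genes and 2.03 for the ribosomal protein genes. In the srebf1 line 10 were higher and 6 lower, where 16.0% of all genes were higher and 21% lower, and the median was 0.22, against −0.12 for all genes and 1.17 for the ribosomal protein genes. Library totals alone gave 15 higher and 14 lower in the srebf2 line, and 8 higher and 6 lower in the srebf1 line. On that scale 9.8% and 14.2% of all genes were higher and 46.2% and 23.3% lower. The medians were then 0.15 and 0.11, against −0.86 and −0.22 for all genes. As a sum the assembly factor genes took 0.322% of all counts in both of these lines, against 0.379% in sec31anju221 and 0.23% in WT. Set against the counts of the ribosomal protein genes, their sum was 3.7% in the srebf2 line and 5.47% in the srebf1 line, against 13.4% in sec31anju221. The box C/D snoRNP protein gene nop56 had 268 CPM in the srebf2 line against 201.5 CPM in sec31anju221, and eif6, which keeps a new large subunit from joining too early, had 177 CPM in the srebf2 line against 391 CPM in sec31anju221.

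Markers of other cells differed as well between the genotypes. The exocrine pancreas list, 12 identifiers, took 0.19% of counts in the atf6 line, 0.054% in the srebf1 line and 0.00251% in the srebf2 line, against 0.00806% in sec31anju221 and 0.0975% in WT. In the srebf2 line 2 of the 12 were over 2-fold higher than in sec31anju221 and 3 lower with library totals alone. Of all genes 9.8% were higher there and 46.2% lower. After TMM scaling 4 of the 12 were higher and 3 lower, where 15.3% of all genes were higher and 34.0% lower. The balance of this list thus depended on the scale. The cycling list of 14 identifiers took 0.0114% in the srebf2 line and 0.0212% in the srebf1 line, against 0.00749% in sec31anju221 and 0.00335% in WT. The hepatocyte list took 6.85% in the srebf2 line and 4.94% in the srebf1 line, against 3.25% in sec31anju221, and 9 and 10 of its 16 genes were over 2-fold higher in the srebf1 and srebf2 lines after TMM scaling, where 16.0% and 15.3% of all genes were. The intestine list of 7 identifiers took 0.0143% in the labelled atf4a/atf4b line, 0.12% in the xbp1 line, 0.00987% in the atf6 line, 0.206% in the srebf1 line and 0.0327% in the srebf2 line, against 0.249% in sec31anju221, which in turn stood against 0.0816% in WT. Most of its genes did not follow the sum in the labelled atf4a/atf4b, atf6 and xbp1 lines. With library totals alone 5 of the 7 were over 2-fold higher than in sec31anju221 and 1 lower in the labelled atf4a/atf4b and atf6 lines. In the xbp1 line 6 were higher and 1 lower. Of all genes 58.5%, 67.9% and 69.4% were higher in these lines, in that order, and 9.58%, 6.32% and 3.26% lower. In sec31anju221 against WT 3 of the 7 were higher and 0 lower with library totals alone. There 41.8% of all genes were higher and 6.92% lower. After TMM scaling 0 were higher and 1 lower, where 21.3% of all genes were higher and 14.0% lower. The intestine marker fabp6 was at 0 in the srebf2 line. The stellate list of 6 identifiers took 0.0339% in the srebf2 line and 0.0097% in the srebf1 line, against 0.00826% in sec31anju221. The list as a whole did not share the larger sum of the srebf2 line. After TMM scaling 2 were over 2-fold higher there and 2 lower, where 15.3% of all genes were higher and 34.0% lower. Library totals alone gave 1 higher and 2 lower, where 9.8% of all genes were higher and 46.2% lower. The erythrocyte, myeloid and lymphoid, and endothelial lists each took at most 0.0144% in any genotype, and the biliary list 0.113% to 0.229%. Their part in the levels of the ribosomal protein genes was not tested. In bulk tissue, fewer cells of a type and less RNA per cell cannot be told apart.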

How the data were processed

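Livers were dissected from 7 dpf larvae and low-input libraries were sequenced as 150-base read pairs. The authors mapped them to GRCz11 with HISAT2 2.1.0, used SAMtools 1.10, and counted per Ensembl gene with featureCounts 1.6.0. The annotation release, strand setting and treatment of multiply mapped reads are not given in the sources used here. The deposited values are raw counts per gene, 1 file per library.

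Here 29201 of 32520 identifiers matched a symbol. One edgeR 4.0.16 fit (R 4.3.3) to all 21 libraries, TMM scaling and genes with a scaled total of at least 10, gave the log2 differences for 30792 genes. A member was counted where the fold change was above 2. Shares of library totals and of member counts were computed in Python 3.11.15. Wilson intervals (95%) cover counting error only. They and the intervals of the share ratios treat counts as independent, and so are too narrow for read pairs counted as 2. The fit was tested on simulated data, where genes changed 4-fold gave a median of 4.11 and genes changed 2-fold 1.91 (sec31anju221 against WT, 31009 genes). Apart from the changed genes, all simulated genotypes shared the same mean profile. The simulation therefore does not test the scaling between genotypes as unlike as these.

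Members, lists and rules were chosen with earlier results of these data known. Named members were the 10 with the highest mean CPM, per comparison the 3 highest and 3 lowest, those over 2-fold shifted within the family, members of related pairs, those under 1 CPM, and rps19bp1. Other genes named were the disrupted genes, the highest of each list and the 10 most alike to the family. Members named outside these rules were chosen after their values were seen. Alternatives were DESeq2 1.42.0, other scalings, filters, thresholds, totals and left-out libraries. Some members and list genes that these rules name are not reported here.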

Additional observations from a re-analysis of the deposited data

How the results depend on the processing

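With 1 sample per genotype, no setting tests a difference between genotypes. The srebf1 and srebf2 lines had more members higher than lower under every scaling, filter and tool tried, and the same held for their share of all counts.

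In the other comparisons the counts of members over 2-fold depended on the scale, and only some scales reversed their balance. With library totals alone 6 (5 higher), 7 (4 higher), 3 (2 higher) and 8 (6 higher) members passed in sec31anju221 against WT and in the labelled atf4a/atf4b, xbp1 and atf6 lines against sec31anju221, where TMM gave 15, 31, 60 and 54, nearly all lower. With totals without apoa2 the counts were 6 (2 higher), 7, 3 and 7 (5 higher). With TMM factors from genes of at least 10 CPM they were 9 (6 higher), 4 (2 higher) and 10 (8 higher) in the labelled atf4a/atf4b, xbp1 and atf6 lines. In sec31anju221 against WT these factors gave 14 (2 higher), so most were still lower there. The median log2 differences of −1.14 (xbp1) and −1.11 (atf6) became 0.31 and 0.34 with library totals, 0.11 and 0.40 with the 10 CPM factors, and 0.29 and 0.29 without apoa2. At a fold of 1.5 after TMM scaling, 37 (2 higher) and 65 (1 higher) members passed in sec31anju221 against WT and in the labelled atf4a/atf4b line. The share of all genes is not given for this fold or for totals without apoa2. Those counts therefore show only how the number of members depends on the setting.

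In the order sec31anju221 against WT, then labelled atf4a/atf4b, xbp1, atf6, srebf1 and srebf2 against sec31anju221, the ratio of shares was 0.83, 0.918, 1.13, 1.1, 2.18 and 3.12 without apoa2 and 1.04, 0.965, 1.23, 1.22, 2.07 and 3.04 over genes of at least 10 CPM. Without rpl5, chosen after seeing the data, it was 1.04, 1.15, 2.01 and 2.73 for sec31anju221, xbp1, srebf1 and srebf2. Members shifted over 1.5-fold within the family numbered 24, 23, 7, 17, 19 and 38 in that order, the last with 18 larger and 20 smaller parts, the opposite balance to the 2-fold count. The ratio of large to small subunit, relative to the reference, was 0.744, 1.04, 0.953, 1.12, 1.25 and 1.58 without rpl35 and rps20. Without rpl5 it was 0.983, 0.983, 1.09 and 1.24 for sec31anju221, xbp1, srebf1 and srebf2.

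Leaving out 1 library at a time, the ratio of shares ranged from 1.02 to 1.02, 0.925 to 0.929, 1.14 to 1.15, 1.14 to 1.14, 2.08 to 2.08 and 3.07 to 3.08, and the members over 2-fold from 15 to 17, 30 to 33, 55 to 61, 49 to 53, 56 to 58 and 76 to 77. Replicate numbers did not pair libraries (same-number correlations −0.0836 to 0.0471), and with the replicate block the counts of members stayed 15, 31, 60, 54, 57 and 76.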

Other observations

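The 75 listed protein genes of the mitochondrial ribosome took 0.236% of all counts in the srebf2 line and 0.349% in the srebf1 line, against 0.483% in sec31anju221 and 0.24% in WT. After TMM scaling 8 were over 2-fold higher and 10 lower in the srebf2 line, and 4 higher and 3 lower in the srebf1 line, where 15.3% and 16.0% of all genes were higher and 34.0% and 21% lower. Library totals alone gave 3 higher and 22 lower in the srebf2 line, and 3 higher and 6 lower in the srebf1 line. Of all genes 9.8% and 14.2% were higher on that scale and 46.2% and 23.3% lower. In the atf6 line and in the libraries labelled as the atf4a/atf4b line the mitochondrial ribosome genes took 0.216% and 0.205% of counts, against 0.483% in sec31anju221, and 65 and 57 of the 75 were over 2-fold lower after TMM scaling, where 22.1% and 21% of all genes were. With library totals alone 28 and 31 were, where 6.32% and 9.58% of all genes were. In the xbp1 line they took 0.537% of counts, with 1 higher and 40 lower after TMM scaling, where 15.8% of all genes were higher and 19.0% lower. Library totals alone gave 16 higher and 2 lower there, where 69.4% of all genes were higher and 3.26% lower.

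RNA polymerase I transcribes the ribosomal RNA. Of 16 listed genes of this enzyme and its factors 13 were matched, and they took 0.018% of counts in the srebf2 line and 0.0237% in the srebf1 line, against 0.0203% in sec31anju221 and 0.016% in WT. After TMM scaling 4 of them were over 2-fold higher and 2 lower in the srebf2 line, and 2 higher and 2 lower in the srebf1 line, beside the shares of all genes given above. Library totals alone gave 1 higher and 3 lower in the srebf2 line, and 2 higher and 2 lower in the srebf1 line. Of all genes 9.8% and 14.2% were higher on that scale and 46.2% and 23.3% lower. The balance in the srebf2 line thus depended on the scale.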
